A study of Mus musculus with 4 samples.

Results

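Spots of the mouse ovary rich in transcripts of Agt, the gene of angiotensinogen, were studied in spatial expression data. A spot is a small round area of a tissue section that holds several cells, so that no value belongs to a single cell, and fewer cells of a type and less RNA per cell cannot be told apart. The Agt-high spots were chosen by their measured expression. UMIs (counts of unique molecules) of Agt, Prxl2a, Serpina5 and Osr2 were summed in each spot with at least 1000 UMIs and scaled to 10000 UMIs, and the 15% of spots with the highest scores over all sections were taken. These were 620 of 4134 spots. The sections came from outbred CD-1 female mice, with 4 aged animals of 15 to 16 months and 4 young animals of 3 to 4 months, and each animal gave 1 section. Every one of the 4 capture areas held 1 aged and 1 young section, which carry the number of their area here, and the study asked how expression across the ovary differs with age.

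Angiotensinogen is the precursor of the angiotensin peptides, and renin makes the first cut. Textbook accounts place a local form of this system in the ovary, where it is linked to vessels, follicles and steroid production. Between the follicles and corpora lutea lies the ovarian stroma, a mixture of fibroblasts, vessels, smooth muscle and steroid-producing interstitial cells. Of the other genes in the score, Prxl2a encodes a peroxiredoxin-like redox protein, Serpina5 encodes a serine protease inhibitor known as protein C inhibitor, and Osr2 encodes a zinc finger transcription factor of the odd-skipped family.

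Agt lies on chromosome 8 (124556534 to 124569706, minus strand), Prxl2a on chromosome 14 (40993740 to 41013788, minus strand), Serpina5 on chromosome 12 (104101113 to 104106137, plus strand) and Osr2 on chromosome 15 (35296098 to 35303305, plus strand) of GRCm38, per GENCODE M21, and all 4 genes are protein coding. RefSeq start sites of this build (GRCm38.p6) were matched for Agt, Prxl2a and Serpina5, and the 250 bases before each start, which hold the core promoter, are shown because these genes define the spots. For Prxl2a the first of its listed starts was used. Capitals mark TATAAA, the core of the TATA box, searched on both strands. It occurred once in the Agt window, near its downstream end, and in neither of the others, while 13.0% of the 27025 mouse promoter windows of this length held it. A match describes the letters only and shows no binding.
Agt, chr8:124569707-124569956, minus strand: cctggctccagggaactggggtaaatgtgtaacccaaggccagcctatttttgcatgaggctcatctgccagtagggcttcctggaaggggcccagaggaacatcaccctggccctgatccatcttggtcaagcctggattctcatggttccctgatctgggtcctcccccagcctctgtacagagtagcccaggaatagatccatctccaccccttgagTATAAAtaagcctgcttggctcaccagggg
Prxl2a, chr14:41013834-41014083, minus strand: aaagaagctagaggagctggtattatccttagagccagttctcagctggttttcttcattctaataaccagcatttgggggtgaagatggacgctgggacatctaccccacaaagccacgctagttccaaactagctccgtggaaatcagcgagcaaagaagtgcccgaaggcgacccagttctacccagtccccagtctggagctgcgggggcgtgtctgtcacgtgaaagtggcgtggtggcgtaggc
Serpina5, chr12:104100863-104101112, plus strand: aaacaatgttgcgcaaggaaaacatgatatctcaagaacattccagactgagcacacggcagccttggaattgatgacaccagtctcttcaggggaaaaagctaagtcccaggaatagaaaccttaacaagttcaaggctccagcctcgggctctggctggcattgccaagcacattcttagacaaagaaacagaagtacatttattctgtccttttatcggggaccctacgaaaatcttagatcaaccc

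Depth and tissue state differed between sections before any comparison. The 8 sections held 249 to 761 spots with the minimum depth, and the Agt-high spots of a section together held 269350 to 5576860 UMIs in the 7 sections with at least 10 of them. Section aged 3 had 3 Agt-high spots with 18626 UMIs in all, and was left out of every comparison of genes, which therefore set 3 aged against 4 young sections. Agt-high spots of section aged 1 were rich in mitochondrially encoded RNA, with a median of 4.79% of UMIs, against 0.273 to 0.580% in those of the 6 other sections compared. The sections of area 3 ran against the others in oocyte transcripts, whose summed level was 483 CPM (counts-per-million) in the aged and 36.9 CPM in the young section, while the other areas had 32.9 to 41.7 CPM in aged and 185 to 569 CPM in young sections. Whether the ages of that area were exchanged cannot be told apart from a difference between animals, so that results are also given without it.

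Agt made up most of the score. It gave 73.7% of the rule-gene UMIs in the Agt-high spots, Prxl2a gave 12.9%, Osr2 gave 7.16% and Serpina5 gave 6.21%. The lowest scores inside the selection were 10.811 and 10.8152 per 10000 UMIs, and the highest outside were 10.8067 and 10.7557. The median score was 16.5 in Agt-high spots and 2.09 in the other spots, with a maximum of 96.9. These values chose the spots and carry no test.

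Agt had 2443, 1198, 591 and 876 CPM in the Agt-high spots of sections aged 1 to 4, and 533, 918, 1227 and 1981 CPM in those of sections young 1 to 4. The 2 ages overlapped, and section young 1 was the lowest of all although it held 94 of the spots. In the rest of each section Agt stayed at 94.4 to 175.4 CPM in aged and 87.7 to 240.2 CPM in young sections. Osr2 was the most even of the 4 genes, with 119.3 to 214.8 CPM in Agt-high spots of aged and 150.6 to 234.0 CPM in those of young sections. Prxl2a ran in another order than Agt. It had 153.9, 83.9, 429.5 and 467.8 CPM in sections aged 1 to 4 and 563.2, 249.95, 159.5 and 242.3 CPM in sections young 1 to 4. In section young 1, Prxl2a gave 38.4% of the rule-gene UMIs and Agt 36.3%, against 5.64% and 89.5% in section aged 1.

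Serpina5 varied more than the other genes of the score, and its values also chose the spots. It had 12.6, 13.2, 107.4 and 26.0 CPM in sections aged 1 to 4, against 195.3, 204.3, 63.8 and 143.8 CPM in sections young 1 to 4. The 3 aged sections that were compared lay below every young section, as in 418 of the 8814 genes (4.74%) tested by age below. The 3 spots of section aged 3 gave their value from 2 UMIs. A Serpina5 UMI was found in 11.1, 19.4 and 13.2% of the Agt-high spots of sections aged 1, 2 and 4, and in 77.7, 79.1, 29.4 and 74.1% of those of the young sections. In section aged 1 it was no higher in Agt-high spots than in the rest (15.4 CPM), and in section aged 4 a UMI was found in 22.9% of the other spots. Across spots within a section, Spearman's correlation of Agt with Serpina5 was -0.05, 0.14, 0.20 and -0.09 in sections aged 1 to 4 and 0.27, 0.30, 0.14 and 0.41 in sections young 1 to 4. Agt and Osr2 correlated at 0.14 to 0.31 in aged and 0.30 to 0.50 in young sections. Spots of a section share a library, and correlations of sparse counts rise with depth, so these are descriptions.

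**Figure D1:**
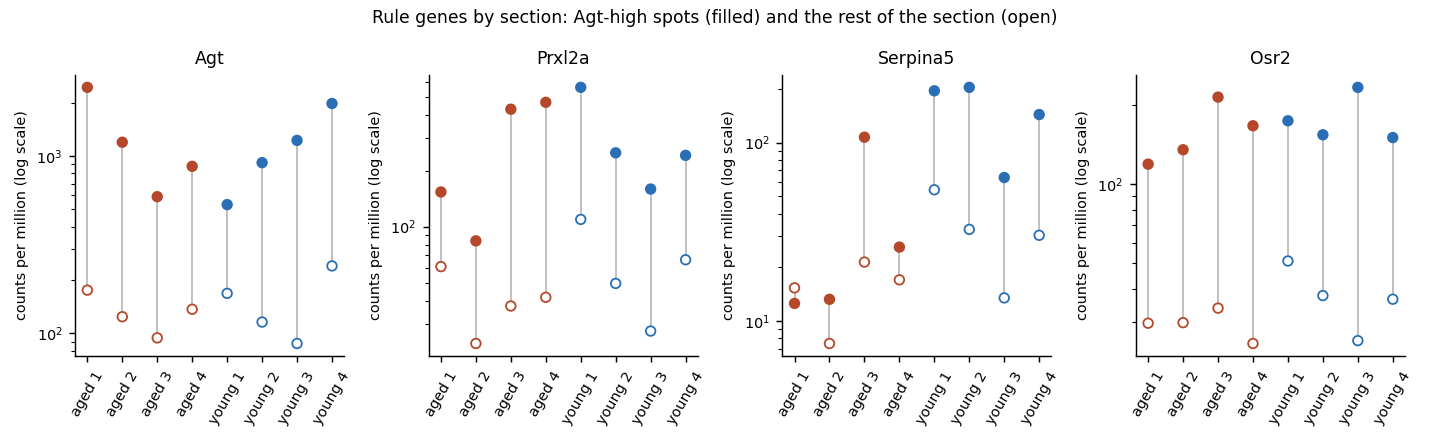
Level of the 4 rule genes by section, in CPM on a log axis, in Agt-high spots (filled points) and the rest of the same section (open points), with aged sections in red on the left and young sections in blue on the right. Serpina5 in Agt-high spots was 12.6 to 26.0 CPM in sections aged 1, 2 and 4 and 63.8 to 204.3 CPM in young sections, and the point of aged 3 rests on 3 spots.

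The Agt-high spots lay together in patches. Their share among the up to 6 adjacent spots was 50.1 ± 14.4% around Agt-high spots and 8.17 ± 5.51% around other spots (mean ± SD over 7 sections). The difference of 42.0 percentage points had the same sign in all 7 sections (exact sign-flip permutation test over sections, two-sided, p = 0.015625, the smallest it can give). Position was not used by the rule. The largest patch held 52 of the 63 spots of section aged 1, 16 of 36 in aged 2, 15 of 38 in aged 4, 40 of 94 in young 1, 21 of 43 in young 2, 25 of 34 in young 3 and 263 of 309 in young 4. Patches thus ranged from a single dense field in sections aged 1 and young 4 to scattered groups, and 4 to 8 spots stood alone in sections aged 2, aged 4, young 1, young 2 and young 4.

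The depth of Agt-high and other spots below the rim of the section lay within the spread between sections. The median distance, counted in array steps from the nearest position without tissue, was 3.00 ± 1.15 steps for Agt-high spots and 2.71 ± 0.49 steps for the others (n = 7 sections, exact sign-flip permutation test, two-sided, p = 0.75). Section young 4 had the deepest Agt-high spots, with a median of 5 steps against 3 for its other spots, and the Agt-high spots of aged 2 and young 3 had a median of 2 steps against 3. Without young 4, the mean difference was 0 steps.

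**Figure D2:**
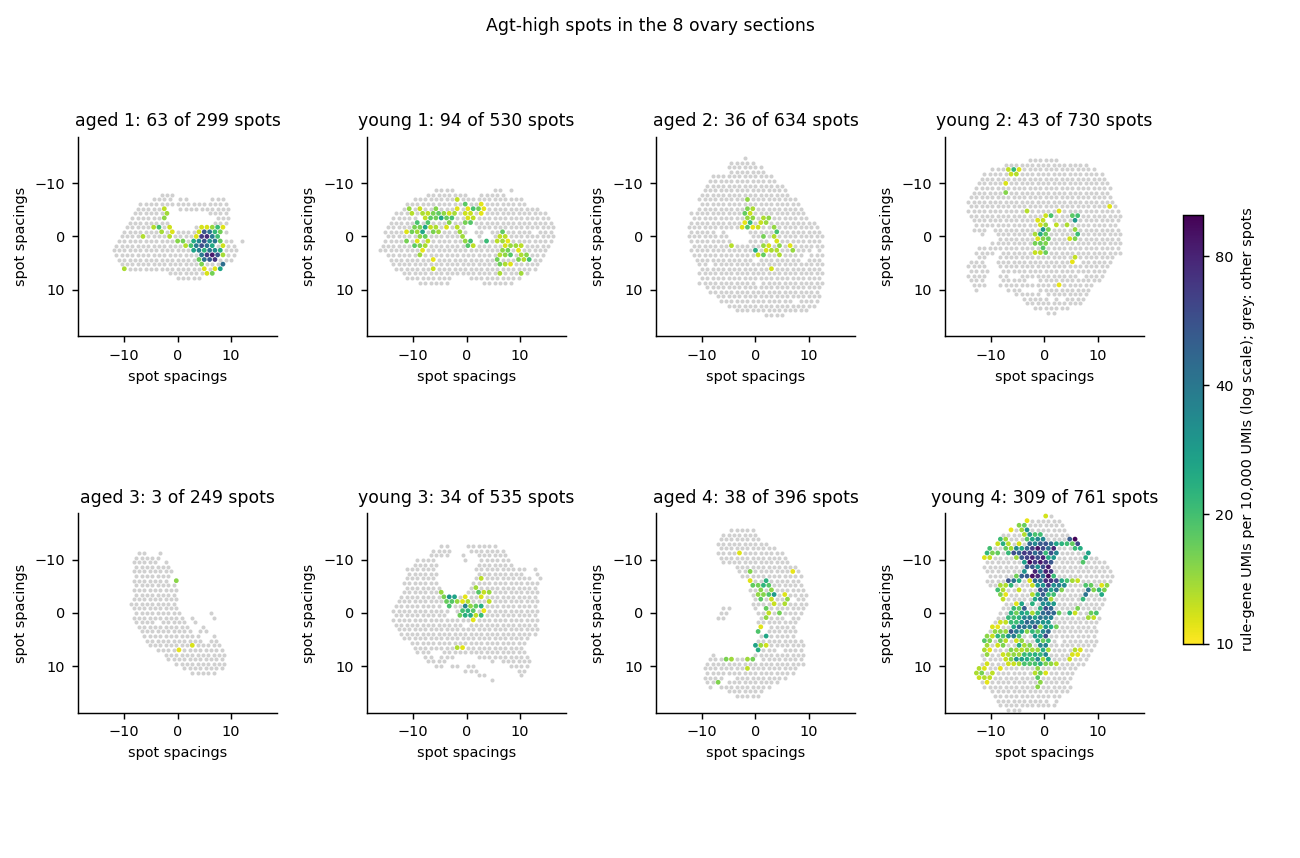
Maps of the 8 sections, with each aged section left of the young section of its capture area and both axes in spot spacings. Coloured points are Agt-high spots, shaded by rule-gene UMIs per 10000 UMIs on a log scale, and grey points are other spots; section young 4 held 309 of them, 263 in a single patch.

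Agt-high spots were shallower than their surroundings. Their median depth averaged 12514 ± 5996 UMIs against 19292 ± 5401 UMIs in the other spots, and was lower in 6 of 7 sections, all but aged 2. They held a median of 4235 ± 1025 genes against 5441 ± 705 genes. The score divides by the UMIs of a spot, so depth and the number of genes that goes with it were part of the choice, and these values carry no test. The median mitochondrial share was 1.05 ± 1.65% against 0.929 ± 0.511% of UMIs, and was higher than in the rest in section aged 1 alone among the 7. Between ages, Agt-high spots had 10978 ± 6586 UMIs in aged and 13667 ± 6234 UMIs in young sections, a difference within the spread between sections (exact permutation test, two-sided, p = 0.629, n = 3 and 4, for which 0.0571 is the smallest possible p).

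Genes of retinoid metabolism stood high in the Agt-high spots. Since the spots were chosen by expression, the following ratios of Agt-high spots to the rest of the same section describe them and carry no test. Ratios are log2 of CPM + 1 and the median of 7 sections is given. Among 11240 genes with at least 5 CPM over whole sections, 663 (5.90%) were higher in the Agt-high spots of every section and 936 (8.33%) were lower in every section, and the median of all these genes was 0.01. Genes of a list that reach this minimum are called measured below, and list medians of these ratios use them alone. Of 11 measured retinoid genes, 8 had a median above 0, and the list's median was 1.11. Adh1, Aldh1a1, Aldh1a2 and Dhrs3 were higher in all 7 sections, and 1 gene of the list was lower in all 7. Adh1, an alcohol dehydrogenase that can oxidise retinol, had 1079, 1286 and 1147 CPM in Agt-high spots of sections aged 1, 2 and 4, and 465, 467, 833 and 798 CPM in those of young 1 to 4. In the rest of those sections it had 186 to 283 CPM in aged and 107 to 204 CPM in young sections, so that the Agt-high spots did not overlap with the rest (log2 ratio 2.11, range 1.93 to 2.72).

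Adh7, a neighbouring gene that is not in this list, encodes an alcohol dehydrogenase that also takes retinol. It had the largest ratio of the named genes outside the score (2.80, range 2.22 to 3.01). It had 349, 381 and 111 CPM in Agt-high spots of aged 1, 2 and 4 and 33.9, 41.3, 102.8 and 127.0 CPM in those of young 1 to 4, against 6.16 to 53.5 CPM in the rest. Aldh1a1 and Aldh1a2, which make retinoic acid from retinal, averaged 1820 ± 495 and 158 ± 39 CPM in Agt-high spots against 681 ± 230 and 74.1 ± 33.5 CPM in the rest (SD, n = 7). Dhrs3, which turns retinal back to retinol, averaged 263 ± 122 against 112 ± 24 CPM. Lrat, which stores retinol as esters, was higher in 6 of 7 sections (31.5 ± 23.7 against 9.38 ± 4.97 CPM). Cyp26b1, which breaks down retinoic acid, lay under this minimum and was not counted, but was higher in all 7 sections (18.1 ± 15.1 against 4.05 ± 2.90 CPM). Crabp2, a retinoic acid carrier, ran the other way, at 5.77 ± 4.39 against 15.8 ± 11.9 CPM.

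Outside the score, the 25 genes with the largest ratios, among those of at least 20 CPM that were higher in every section, had medians of 1.66 (Pkdcc) to 2.80 (Adh7). Tbx3, a T-box transcription factor, had 143 ± 44 CPM in Agt-high spots and 32.2 ± 5.5 CPM in the rest (log2 ratio 1.94, range 1.61 to 2.62). Srd5a1, the steroid 5-alpha-reductase that makes dihydrotestosterone, had 96.4 ± 42.3 against 26.5 ± 11.9 CPM (1.85). Others of known role were Adcyap1 (the peptide PACAP, 1.97), Cacna1d (an L-type calcium channel, 1.69), Coro2a (an actin-binding coronin, 2.49), Dock8 (an activator of Cdc42, 1.96), Smpx (a small muscle protein, 2.21), Dync1i1 (a dynein chain, 1.71), Oca2 (a pigment cell transporter, 2.13) and the secreted kinase Pkdcc. The group also held Klhl31 (2.08), Pgbd5 (2.10), Bpifb5, Myo15b, Trank1, Cdk5rap2, Fam169a, Pak6, Syne4 and Plekha4. A pair of antisense genes, 4930426D05Rik and A530020G20Rik, are uncertain, because use of the strand in counting is not given in the sources used here.

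**Figure D3:**
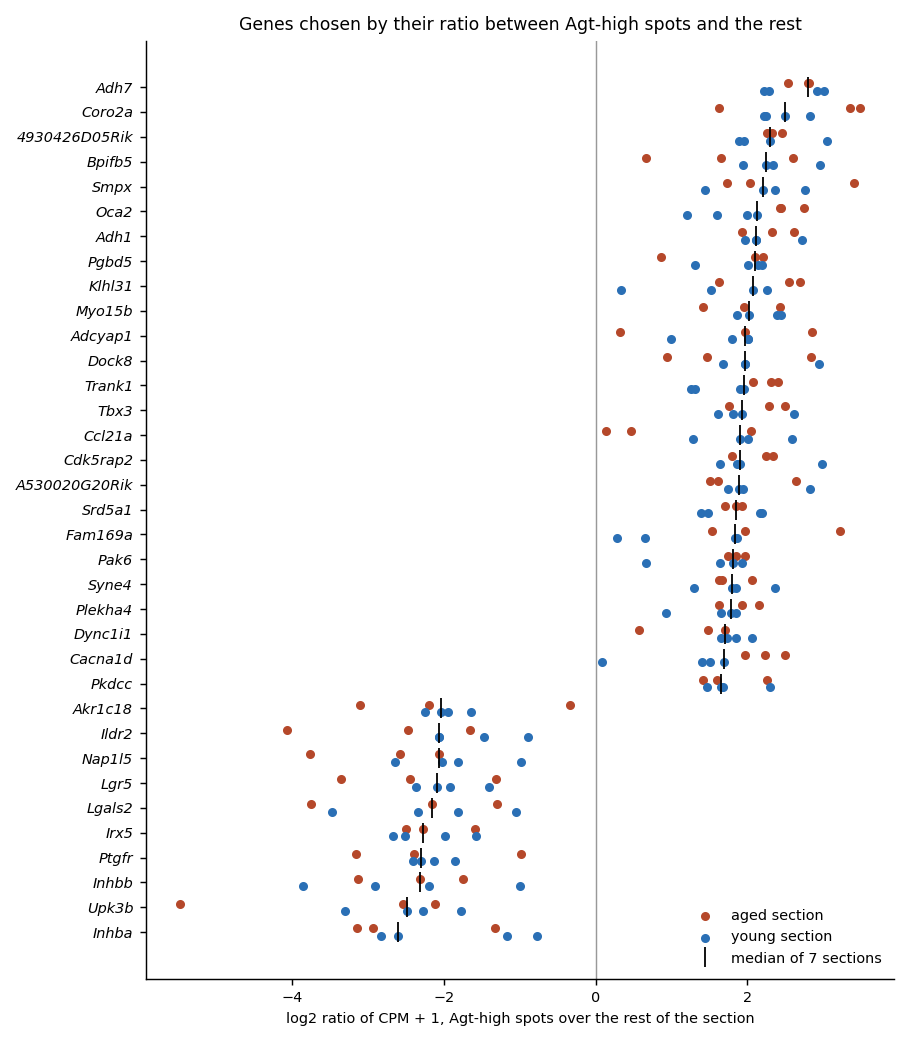
The 25 genes with the highest and the 10 with the lowest ratio between Agt-high spots and the rest, chosen by that ratio among genes outside the score. The horizontal axis is the log2 ratio of CPM + 1, points are sections (aged in red, above young in blue) and ticks are medians of 7 sections, which run from -2.60 (Inhba) to 2.80 (Adh7).

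Some lymphatic and blood vessel markers were also higher, and others were not. Ccl21a, a chemokine of lymphatic vessels that guides dendritic and T cells, had 256, 202 and 917 CPM in Agt-high spots of aged 1, 2 and 4 and 1225, 452, 1198 and 1194 CPM in those of young 1 to 4, against 183 to 317 CPM in the rest. Its level is uncertain because near-identical copies of the gene exist. Of 6 measured lymphatic markers, Ccl21a and Lyve1 were higher in all 7 sections, and the list's median was 1.17, while Pdpn, a glycoprotein of lymphatic vessels and other cells, averaged 17.5 ± 11.5 against 16.7 ± 7.2 CPM and was lower in 5 of 7. Vwf, made by vessel endothelium, had 41.6 ± 31.9 against 11.8 ± 5.5 CPM and was higher in all 7, as was the endothelial junction gene Cldn5 (142 ± 118 against 68.9 ± 31.1 CPM), but these were the only 2 of 12 blood vessel markers that were higher in every section, and the list's median was 0.25. Kdr, a receptor for vascular growth factor, averaged 34.5 ± 12.8 against 41.7 ± 9.0 CPM and was lower in 5 of 7. Of 13 smooth muscle and pericyte markers 11 had a median above 0 and none was higher in every section.

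The label of ovarian stroma was only partly borne out by fibroblast markers. Of 14 measured markers, 11 had a median ratio above 0 and none was higher in every section, with a list median of 0.22. Dcn, a collagen-binding proteoglycan, averaged 451 ± 75 against 262 ± 137 CPM and was higher in 6 of 7 sections, all but aged 2. The collagen gene Col1a2 (283 ± 54 against 388 ± 130 CPM) and the growth factor receptor gene Pdgfra (66.9 ± 14.0 against 86.8 ± 24.5 CPM) were lower in 6 of 7. All 15 fibroblast markers were detected in Agt-high spots, and their summed level was 3280 to 5274 CPM there and 2543 to 5049 CPM in the rest. The spots are therefore called by their leading gene here.

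Steroid-producing genes were present at high levels but did not move as one group. Hsd3b1, an enzyme of progesterone synthesis, averaged 9388 ± 1201 CPM in Agt-high spots and 8648 ± 2559 CPM in the rest, and Cyp11a1, which cleaves the side chain of cholesterol, averaged 6564 ± 2305 against 8642 ± 1640 CPM. Star, which brings cholesterol into mitochondria, was lower in all 7 sections (1461 ± 487 against 3438 ± 1732 CPM, log2 ratio -1.25), as was Scarb1, a receptor for high-density lipoprotein (664 ± 186 against 1374 ± 507 CPM, -1.09). Of 19 genes of cholesterol synthesis and uptake, 8 were lower in every section and none was higher in every section (list median -0.78).

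Of 15 measured gonadal and mesenchymal transcription factor genes, 3 were higher and 3 lower in every section, with a list median of 0.07. Gata4 averaged 156 ± 47 against 79.3 ± 24.4 CPM, while Gata6 averaged 23.2 ± 17.5 against 56.7 ± 22.9 CPM. Gata6 was lower in all 7 sections, and Gata4 was higher in all 7, though in section aged 1 by a log2 ratio of 0.00 when rounded. Esr1, for oestrogen receptor alpha, averaged 68.2 ± 21.4 against 30.8 ± 7.7 CPM and was higher in all 7 sections, while Esr2, for oestrogen receptor beta, averaged 7.92 ± 4.03 against 16.5 ± 9.0 CPM and was lower in all 7. Nr5a1, for the steroidogenic factor SF-1, was higher in all 7 (311 ± 136 against 151 ± 26 CPM). The Wnt ligand genes Wnt4 (261 ± 137 against 105 ± 35 CPM) and Wnt6 (70.1 ± 37.7 against 34.7 ± 16.7 CPM) were higher in all 7, and Sfrp4, a secreted Wnt antagonist, was lower in all 7 (1192 ± 665 against 4305 ± 2282 CPM). Among redox genes, Gstm1, a glutathione transferase (1821 ± 470 against 613 ± 148 CPM), and Sod3, the extracellular superoxide dismutase (226 ± 46 against 91.6 ± 19.9 CPM), were higher in all 7, while Gpx3, the secreted glutathione peroxidase, was lower in all 7 (1036 ± 540 against 2726 ± 1029 CPM).

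None of the 12 other genes of the renin-angiotensin list was higher in the Agt-high spots of every section. The median was -0.23 over the 6 genes with at least 5 CPM over whole sections. The aminopeptidase gene Enpep, whose product cuts angiotensin II, was lower in all 7 (8.62 ± 5.60 against 16.3 ± 6.9 CPM). Ace, for the converting enzyme, averaged 33.7 ± 21.2 against 30.3 ± 12.9 CPM. Ren1, for renin, lay under the 5 CPM minimum. It averaged 11.6 ± 15.9 against 2.77 ± 2.59 CPM and was higher in 5 of 7 sections (log2 ratio 0.41). The receptor genes were near the detection limit: Agtr1a averaged 5.40 ± 4.80 CPM and Agtr2 5.54 ± 3.78 CPM in Agt-high spots, and Agtr1b and Mas1 were at 0 there.

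Many genes of granulosa cells and corpora lutea were low, and so were all surface epithelium genes with at least 5 CPM over whole sections. The lowest ratio among genes of at least 20 CPM in the rest was that of Inhba, the activin beta-A subunit of granulosa cells, which had 73.8, 4.41 and 134 CPM in Agt-high spots of aged 1, 2 and 4 and 29.8, 2.17, 21.3 and 24.4 CPM in those of young 1 to 4. The rest of the same sections had 664, 40.5 and 338 CPM in aged and 68.2, 21.6, 134 and 42.4 CPM in young sections, so that it was lower in each of them (log2 ratio -2.60). Inhbb, the beta-B subunit, was likewise lower in each (-2.31), and 9 of 13 granulosa genes were lower in all 7 sections (list median -1.47). Inha, the inhibin alpha subunit, did not follow them, at 1915 ± 787 against 1874 ± 868 CPM. Of 7 corpus luteum genes, 3 were lower in every section (list median -1.46), while Lhcgr, the receptor for luteinising hormone, averaged 300.0 ± 146 against 374 ± 258 CPM and was lower in 4 of 7. Ptgfr, the receptor for the luteolytic prostaglandin, averaged 208 ± 77 against 908 ± 213 CPM (-2.30). Akr1c18, which breaks down progesterone, averaged 1467 ± 703 against 5750 ± 3267 CPM (-2.04). All 8 measured genes of the surface epithelium were lower in all 7 sections (median -1.80), among them Upk3b (-2.48) and Krt19. Of the 11 genes listed, Gpm6a lay under the minimum and was higher in 4 of 7 sections (5.40 ± 1.84 against 4.76 ± 1.76 CPM). Irx5, Lgals2, Lgr5, Nap1l5 and Ildr2 completed the 10 lowest, with ratios of -2.28 to -2.06.

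Levels were graded with distance from the Agt-high spots. Other spots were grouped by array steps to the nearest Agt-high spot, and medians over 7 sections are given. Agt went through 1198, 347, 163, 110 and 95.7 CPM in Agt-high spots and at 1, 2, 3 and at least 4 steps, an order that the choice of spots partly fixes. Genes outside the score had like profiles, which carry no test. Of those given here, Adh1, Ccl21a and Tbx3 had been chosen for a high ratio to the rest and Inhba for a low ratio. For these genes the difference between Agt-high and other spots is thus fixed by that choice. Adh1 had 833, 418, 204, 148 and 106 CPM in the same order, and Aldh1a1 had 1564, 914, 608, 514 and 443 CPM. Ccl21a had 917, 531, 192, 164 and 146 CPM and Tbx3 had 144, 57.9, 33.9, 26.7 and 22.1 CPM. Spots directly beside the Agt-high spots thus held intermediate levels of these genes. Star went the other way, with 1223, 2539, 4035, 4032 and 2759 CPM, and so did Inhba, with 24.4, 29.4, 44.9, 61.1 and 88.9 CPM.

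**Figure D4:**
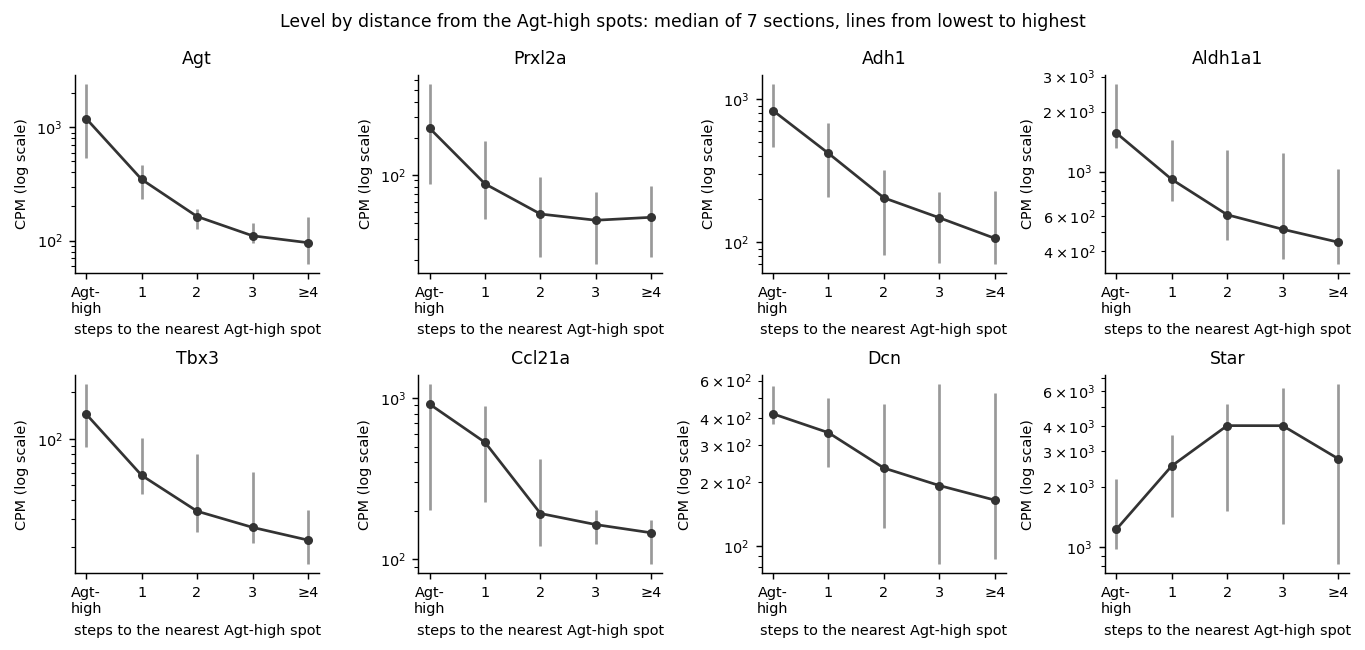
Level of 8 genes by distance from the Agt-high spots, in CPM on log axes. Points are medians of 7 sections and vertical lines run from the lowest to the highest section; Adh1 had 833 CPM in Agt-high spots and 106 CPM at 4 or more steps, and Star had 1223 and 2759 CPM.

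Agt-high spots were set beside spots chosen in the same way for other cell types. Top-15% selections were made with theca genes (Cyp17a1, Insl3, Ptch1 and Hhip), collagen stroma genes (Dcn, Lum, Col1a2 and Pdgfra) and smooth muscle genes (Acta2, Tagln, Myh11 and Cnn1), each of 620 spots, or 15% of all. Theca spots were 34.8% of the Agt-high spots, smooth muscle spots 31.0% and collagen stroma spots 11.9%, and 41.3% of the Agt-high spots were in none of the 3. Section young 4 held 49.8% of all Agt-high spots, so these pooled shares lean on it. The overlap varied between sections: smooth muscle spots were 60.6% of the Agt-high spots of young 1, and 6.98 to 11.1% of those of aged 1, 2 and 4 and young 2. They were 32.8% of all spots of young 1, and 10.6 to 12.4% of all spots of aged 1, 2 and 4 and young 2. In young 3 and young 4, smooth muscle spots were 44.1 and 34.0% of the Agt-high spots, above their share of 9.35 and 20.9% of all spots. The overlap with theca spots was 46.6% in young 4, where these were 30.1% of all spots. It was 0% in aged 2, where no spot was in the theca selection. In young 2 and young 3 it was 9.30 and 2.94%, below their share of 11.1 and 4.11% of all spots. In aged 1, aged 4 and young 1 it lay above their share (31.7, 44.7 and 31.9% against 23.7, 18.9 and 24.3%). Mean depth below the rim differed from that of theca spots by 0.571 steps (6 sections), from collagen stroma spots by 0.525 steps and from smooth muscle spots by 0.186 steps (7 sections each). None of these passed (exact sign-flip permutation tests, two-sided, p = 0.09375, 0.078125 and 0.25, adjusted p = 0.141, 0.141 and 0.25 over the 3 comparisons).

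The share of spots that were Agt-high did not separate the ages. It was 21.1% in section aged 1 (95% Wilson interval 16.8 to 26.0%), 5.68% in aged 2 (4.13 to 7.76%), 1.205% in aged 3 (0.411 to 3.48%) and 9.60% in aged 4 (7.07 to 12.9%). It was 17.7% in young 1 (14.7 to 21.2%), 5.89% in young 2 (4.40 to 7.84%), 6.36% in young 3 (4.58 to 8.75%) and 40.6% in young 4 (37.2 to 44.1%). The intervals cover counting error only. Section young 4 alone held 49.8% of all Agt-high spots, and the shares of the 2 ages overlapped. The mean share was 9.39 ± 8.51% in aged and 17.6 ± 16.3% in young sections (SD, n = 4 each), a difference of -8.26 percentage points within the spread between sections (exact permutation test, two-sided, p = 0.457, where 0.0286 is the smallest possible). Within capture areas, the aged section was higher in area 1 and lower in areas 2, 3 and 4. Without young 4 the difference was -0.606 points, and without area 3 it was -9.30 points. The age difference in share was set against that of the theca, collagen stroma and smooth muscle selections, and none of the 3 comparisons passed (differences of -2.83, -18.1 and 1.74 points, exact permutation p = 0.6, 0.171 and 0.771, adjusted p = 0.771, 0.514 and 0.771).

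Within the Agt-high spots, few genes differed between ages beyond the spread of the sections. With edgeR's quasi-likelihood test on summed counts and Benjamini-Hochberg adjustment, 1 of 8814 genes was lower in aged sections at an adjusted p under 0.05 (0.0113%) and 0 were higher (0%). The gene called was Serpina5, whose values helped to choose the spots, so that its call is a description, and 0 genes outside the score were called. At an unadjusted p under 0.05, 282 genes (3.20%) were higher and 271 (3.07%) lower, and DESeq2 called 3 genes, Serpina5 and Mfap5 lower and Ssu2 higher. With single sections left out, 3 genes were called without aged 1, 12 without aged 2, 11 without aged 4, 1 without young 3 and 0 without young 1, young 2 or young 4. Each animal gave 1 section, so p-values measure the spread between animals and sections together.

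Next in order of p came Ighg2c, Mfap5, Pamr1, Jchain, Ssu2, Malat1, Arhgap15, Syngr1 and Cyp51, none of which passed (edgeR, adjusted p = 0.188 to 0.315). Mfap5, a protein of elastic microfibrils, had 10.99, 17.7 and 26.0 CPM in aged 1, 2 and 4 and 108.8, 75.0, 49.6 and 60.4 CPM in young 1 to 4 (log2 fold change -2.02 ± 0.37 SE). Pamr1, of a peptidase-like secreted protein, had 6.28, 5.89 and 3.71 CPM in aged and 34.6, 19.6, 42.5 and 30.1 CPM in young sections (-2.24 ± 0.42). Its aged values rest on 4, 4 and 1 UMIs. In both genes every aged section lay below every young section, as in 418 of all 8814 genes tested (4.74%). Ighg2c, an immunoglobulin heavy chain gene, had 15.7, 666.6 and 14.9 CPM in aged and 2.77, 4.35, 0 and 0.359 CPM in young sections, and its highest value by far came from aged 2. Jchain, which joins immunoglobulin chains in plasma cells, had 102.1, 325.2 and 3.71 CPM in aged and 4.85, 4.35, 35.5 and 0.359 CPM in young sections, which overlapped. Malat1, a long nuclear RNA, had 2719, 370.8 and 375.0 CPM in aged and 187.0, 193.4, 141.8 and 150.4 CPM in young sections (2.94 ± 0.60). Its highest value came from aged 1, the section with the high mitochondrial share. Without aged 1 the log2 fold change of Malat1 was 1.24 (edgeR, adjusted p = 0.821). Without aged 2 it was 3.35 and without aged 4 it was 3.38 (edgeR, adjusted p = 0.0220 and 0.0343). The part of the mitochondrial share in the result was not tested. Cyp51, an enzyme of cholesterol synthesis, had 122.5, 116.2 and 174.5 CPM in aged and 63.0, 60.9, 95.7 and 81.9 CPM in young sections (1.00 ± 0.22).

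**Figure D5:**
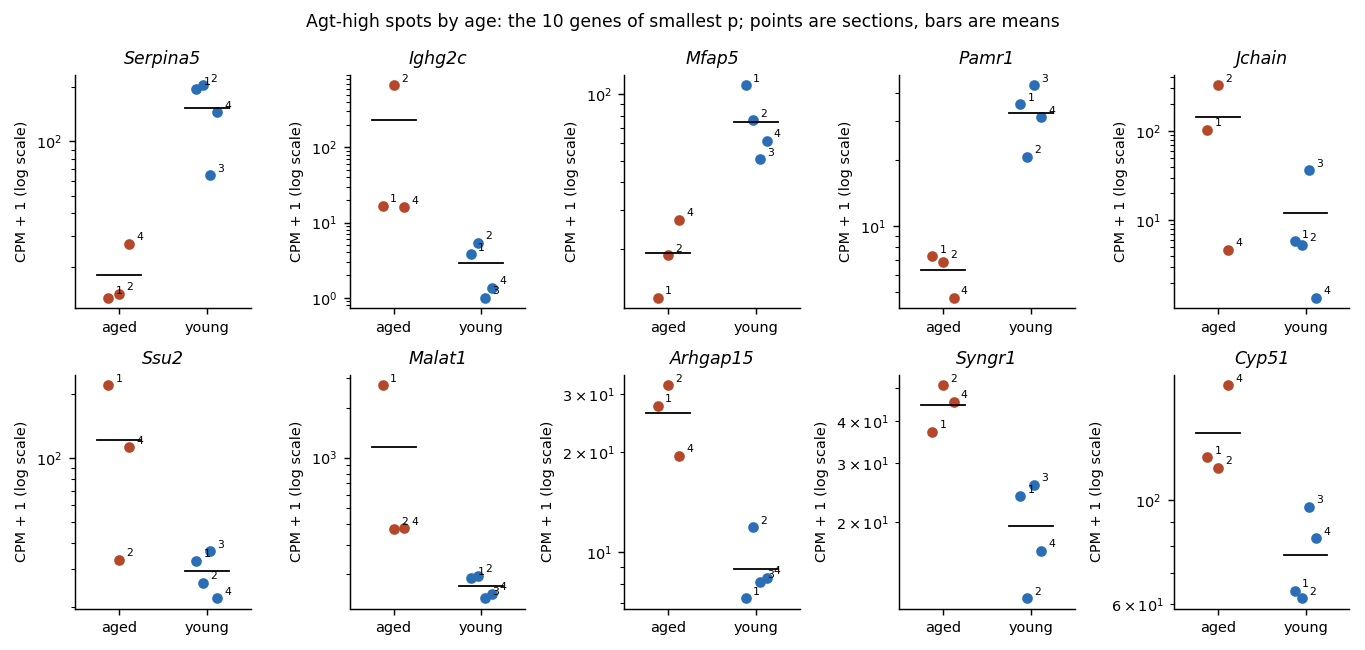
Level in Agt-high spots by age for the 10 genes of smallest p, as CPM + 1 on log axes. Points are sections labelled by capture area, aged left of young, and bars are means; Serpina5 belongs to the score, and none of the 9 other genes passed the threshold.

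Adh1 and Adh7, both among the 25 genes with the highest ratios, did not pass the test between ages. Adh1 was higher in every aged than in every young section, as were 121 of all 8814 genes tested (1.37%). Adh7 lay above every young section in 2 of 3 aged sections. Their log2 fold changes were 1.04 ± 0.31 and 2.13 ± 0.47 (edgeR, adjusted p = 0.478 and 0.315). Without section aged 4, Adh7 passed (2.53 ± 0.41, adjusted p = 0.0343). In the rest of the sections Adh1 averaged 242 ± 50 CPM in aged and 136 ± 46 CPM in young sections, so that its mean was higher in aged sections there too, with some overlap. Of the 25 genes with the highest ratios, none was called between ages with all sections, and their fold changes ran from -1.10 for Ccl21a to 2.13 for Adh7.

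Sections of an area shared a library, and when the capture area was taken as a block, 11 of 8936 genes (0.123%) were called by edgeR, 6 higher and 5 lower in aged sections. This fit drops area 3, because aged 3 had too few spots, and without the block the same sections gave 1 call, Serpina5. The immunoglobulin genes Igha (log2 fold change 4.66 ± 0.30 SE, adjusted p = 5.53e-06), Igkc (5.52 ± 0.58, 0.00057) and Ighg2c (5.86 ± 0.62, 0.00057) rose. Ssu2 (2.14 ± 0.37), Inhba (1.91 ± 0.31) and Fabp4, a fatty acid carrier of fat and endothelial cells (1.79 ± 0.30), rose as well (adjusted p = 0.0354 to 0.0449). Their means were also higher in aged sections in the rest (3 aged and 4 young sections). There Ssu2 had 276 ± 225 against 109 ± 129 CPM, Inhba 348 ± 312 against 66.7 ± 49.0 CPM and Fabp4 79.8 ± 37.9 against 18.1 ± 14.1 CPM. Mfap5 fell (-2.19 ± 0.34, adjusted p = 0.0234), as did the oocyte genes Zp3 of the zona pellucida (-4.24 ± 0.56), Padi6 (-4.08 ± 0.58) and Zar1 (-4.79 ± 0.82), at adjusted p of 0.00661, 0.0121 and 0.0449. In Agt-high spots of aged 1, 2 and 4, Zp3 had 1, 1 and 1 UMIs, Padi6 had 2, 0 and 1, and Zar1 had 0, 1 and 0. The size of these 3 fold changes is therefore uncertain.

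Summed lists of other cells are given beside these calls, but they contain called genes and are no independent evidence. Igha, Igkc and Ighg2c are in the B and plasma cell list, and Zp3 and Padi6 in the oocyte list. Igkc alone had 4076 CPM in Agt-high spots of aged 2. The summed level of 10 B and plasma cell genes in Agt-high spots was 721, 6399 and 698 CPM in sections aged 1, 2 and 4 and 83.8, 69.6, 1907 and 30.5 CPM in young 1 to 4. In the rest of these sections it was 477, 1833 and 172 CPM in aged and 192, 118, 612 and 26.7 CPM in young sections. The highest young value thus came from area 3, which the blocked fit leaves out. The summed oocyte list had 31.4, 16.2 and 33.4 CPM in Agt-high spots of the aged and 307, 104, 39.0 and 147 CPM in those of the young sections, again with young 3 near the aged values. The part of these cells in the calls was not tested. Immunoglobulin gamma chain genes such as Ighg2b and Ighg2c are similar to one another, so their single values are uncertain.

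Lists were also counted by direction, and in the unblocked edgeR test over 3 aged and 4 young sections none of their genes passed. The exceptions elsewhere included Mfap5 of the fibroblast list, called with DESeq2 and with the block, and mitochondrially encoded genes, called without aged 2 or aged 4 or when spots were chosen within areas. Over all 8814 genes, 50.2% were higher in aged sections and the median log2 fold change was 0.00. At an unadjusted p under 0.05, 3.20% of all these genes were higher and 3.07% lower. Of 19 genes of cholesterol synthesis and uptake, 18 were higher and 13 had an unadjusted p under 0.05, with a median of 0.73. Their summed level was 3765, 2606 and 3553 CPM in Agt-high spots of aged 1, 2 and 4 and 2057, 2320, 2684 and 2887 CPM in young 1 to 4, so that the ages overlapped through aged 2. Fdps, which makes farnesyl diphosphate, had 641, 550 and 561 CPM in aged and 283, 351, 464 and 396 CPM in young sections, and Sqle, for squalene epoxidase, had 105, 72.1 and 100.2 CPM against 46.4, 33.7, 70.9 and 62.4 CPM. In the rest of the sections the summed level of the 19 genes was 5830, 6820 and 10283 CPM in aged sections. It was 2817, 3862, 8692 and 2811 CPM in young sections, where the ages overlapped through young 3.

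All 10 mitochondrially encoded genes tested were higher, with a median of 2.41 that was 0.72 without section aged 1. Their summed level was 45074, 9934 and 4971 CPM in aged and 7452, 6938, 3166 and 4234 CPM in young sections, and aged 1 stood far above all others. Of 13 smooth muscle and pericyte genes, 11 were lower (median -0.67), and 7 of these had an unadjusted p under 0.05. Of all genes tested, 3.07% were lower at that threshold. Acta2, the smooth muscle actin, had 300, 428 and 446 CPM in aged and 1299, 459, 1322 and 865 CPM in young sections. The ages did not overlap, though only by 446 against 459 CPM. Of all 8814 genes tested, 418 (4.74%) likewise had every aged section below every young section. All 4 lymphatic genes tested were lower (median -1.38), among them Ccl21a and Flt4, the receptor of lymphatic growth factors (-1.35 ± 0.39, edgeR, adjusted p = 0.462). Of 14 fibroblast genes 12 were lower (median -0.25), and of 8 retinoid genes 4 were higher and 4 lower (median -0.03).

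The age difference of the Agt-high spots was then compared with that of the rest of the same sections. The edgeR interaction test called 0 of 13850 genes (0%), while 833 had an unadjusted p under 0.05, and the smallest adjusted p was 0.163, shared by Comp, Mmp9 and Serpina5, of which Serpina5 belongs to the score and is no independent test. DESeq2 was not run for this comparison. On the log2 scale the interaction was 0.12 ± 0.23 for Adh1, 0.10 ± 0.23 for Adh7 and -0.99 ± 0.32 for Ccl21a. All missed the threshold (edgeR, adjusted p = 0.979, 0.992 and 0.76). Without area 3, Mmp9 (-3.51 ± 0.49, adjusted p = 0.0114) and Igkc (2.63 ± 0.40, adjusted p = 0.0185) passed. With single sections left out, 2 genes were called without aged 1, 1 without aged 2, 3 without young 1, 2 without young 3 and 0 without aged 4, young 2 or young 4.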

How the data were processed

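Expression was measured on array spots over ovarian sections. The authors deposited raw UMI counts per gene and spot for each capture area, made with Space Ranger 1.2.1 on mm10, per the submitters' processing notes. The gene annotation, and whether counting used the strand, were not given in the sources used here. The 4 tables held 32285 genes and 4191 spots, of which 57 had under 1000 UMIs and were left out. Each area holds an aged and a young section, which were separated by the widest gap in the array, and splitting by k-means moved 11 spots. The tables used 2204 distinct spot barcodes, and 1358 of them occur in more than 1 area because the arrays share their design, each at the same array position.

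The members and gene lists were chosen with earlier results of these data known. For age, UMIs were summed over the Agt-high spots of each section with at least 10 of them and tested with edgeR 4.0.16 (limma 3.58.1, R 4.3.3; TMM, filterByExpr, quasi-likelihood test, Benjamini-Hochberg adjusted p under 0.05 over all genes tested). The interaction used a factor for section. DESeq2 1.42.0, other size factors, other selections of spots and left-out sections were alternatives. Shares and positions were compared over sections with exact permutation tests. The fitting script was tested on simulated data. Named genes were the 4 rule genes, the 25 highest and 10 lowest ratios to the rest (at least 20 CPM, same direction in every section used), the 10 smallest p by age, and up to 4 genes a list by level. Other list genes named were chosen after their values were seen. The sections of an area share a library, per the labels. The deviations of its sections from their age means correlated at 0.01, 0.31 and 0.11 in areas 1, 2 and 4, so the blocked fit is given beside the main result.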

Additional observations from a re-analysis of the deposited data

Results flagged for a closer look

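Of 59 groups of 4 to 10 section values that were screened, 5 held 1 section far from the others, and chance flags about 1 in 20 groups. The log2 ratio of Agt-high spots to the rest was lowest for Pak6 in young 1 (0.67), for Plekha4 in young 2 (0.92) and for Dync1i1 in aged 1 (0.57), while the ratio of Upk3b was lowest in aged 2 (-5.48), where no Upk3b UMI was found in the Agt-high spots. Jchain reached 35.5 CPM in the Agt-high spots of young 3, above those of the other 3 young sections, and the same section had 1907 CPM of summed B and plasma cell genes. The 57 spots under 1000 UMIs, which the rule leaves out, held 8 UMIs of the 4 rule genes among 33008 UMIs, above the limit of 3 that a count of 0 allows.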

How the results depend on the processing

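The number of genes called between ages depended on the choices made. Against 1 call, of Serpina5, which belongs to the score, there were 48 with no filter on low counts, 3 with DESeq2, 11 with the replicate block by capture area, 6 when the top 15% were taken within each area (mt-Nd1, mt-Nd2, mt-Nd3, mt-Nd5, mt-Co2 and Malat1), and 0 with the top 20%, with a score without Agt or with genes weighted equally. It ran from 0 to 12 with single sections left out. For the interaction, against 0 calls, there were 3 with the top 10%, 9 with a score without Agt and 2 without area 3, and 0 to 3 with single sections left out. The rim distance difference was 0 steps with a score without Agt and 0 to 0.5 steps with sections left out. Genes higher in Agt-high spots of every section with a median log2 ratio of at least 1 numbered 130, against 75 with the top 20% and 74 with a score without Agt, and 118 to 158 with sections left out. The cause of these shifts was not tested. The neighbour difference (21.8 to 44.8 points) and the age difference in share (-13.3 to -0.606 points, exact permutation p = 0.229 to 0.914; 0.375 when paired within areas as the replicate block) kept their direction and side of the threshold under every alternative run. A score without Agt shared 61.8% of the Agt-high spots. Depth limits low genes, since the Agt-high spots of aged 4 held 269350 UMIs in all.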
